A study of Mus musculus with 15 samples.

Results

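Of the 15 RNA libraries of the study, 6 were compared here, the 3 titled +MyoD+F/R/C+SP and the 3 titled +MyoD, matched by the replicate number in their titles. All were made from mouse embryonic fibroblasts (MEFs) of the genotype Tg:Pax7-nGFP/C57BL6;DBA2, in which a Pax7 transgene drives a nuclear green fluorescent protein. The cells of both groups received 4 transfections of synthetic MyoD mRNA, in iMPC medium with B18R, a viral decoy receptor for type I interferon, and were collected on day 10. The +MyoD cultures had no small molecule added. The other cultures had forskolin, RepSox and CHIR99210 (F/R/C) together with SP600125 (SP). Each of the 3 MEF lines came from 1 embryo and was carried through every condition, so that replicate numbers 1, 2 and 3 stand for the same line in both groups and for biological replicates within a group. The contrast is that of the whole mixture with no compound, and the shares of its 4 compounds in a change cannot be told apart in it. The 3 libraries with F/R/C and no SP are given beside some results, because only they differ from the SP libraries by the single compound.

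MyoD (Myod1) is a basic helix-loop-helix transcription factor that binds E-boxes and can turn fibroblasts into muscle cells. Its forced expression alone is known for driving cells out of the cell cycle into myotubes, whereas satellite cells, the resident stem cells of muscle fibres, are marked by Pax7 and can still divide. Forskolin activates adenylyl cyclase and so raises cAMP, RepSox inhibits the type I TGF-β receptor, CHIR compounds inhibit GSK3 and so stabilize β-catenin, and SP600125 inhibits the Jun N-terminal kinases (JNK), which activate the AP-1 subunit Jun.

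The 6 libraries held 31178230 to 41401758 estimated counts, and levels below are in CPM (counts scaled to a common effective library size). The fibroblast markers Vim and Fn1 stood among the abundant genes of all 6. The +MyoD libraries varied among themselves more than the SP libraries, with a biological coefficient of variation of 0.366 against 0.252 when each group was fitted alone. Reads of mitochondrial genes took 1.43 to 1.80% of the +MyoD libraries and 3.001 to 5.06% of the SP libraries. In bulk RNA of a mixed culture, fewer cells of a type and less RNA per cell cannot be told apart.

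Myod1 (chr7:46376474-46379099, GRCm38) was read at 0.113 to 0.556 CPM in the untransfected MEFs. It stood at 3481, 1615 and 1722 CPM in +MyoD lines 1, 2 and 3, and at 1469, 1095 and 836 CPM in the same lines with the SP cocktail. Each SP library lay below each +MyoD library, and the log2 fold change of the fit, SP cocktail minus +MyoD, was -0.91 ± 0.26 (SE; edgeR adjusted p = 0.0180). The call was lost in 6 of the 15 alternative settings, among them without line 1 or 3 of the SP cocktail (adjusted p = 0.0964 and 0.0598) and without line 2 or 3 of +MyoD (adjusted p = 0.0519 and 0.0637). The counts do not separate the transfected mRNA from the transcript of the cell's own gene.

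Of 19331 genes tested, 2477 (12.8%) were higher and 1826 (9.45%) were lower with the SP cocktail than with +MyoD, 4303 (22.3%) in all, at an adjusted p of at most 0.05 and an absolute log2 fold change over 0.5. The median log2 fold change of all genes tested was 0.02. Fitted on these 6 libraries alone with the MEF line as a block, 17038 genes were tested, and 1404 (8.24%) were higher and 1026 (6.02%) lower; 1396 and 1021 of these were also called in the fit of all 15 libraries. In 3661 genes (18.9%) each SP library lay above each +MyoD library, and in 2937 (15.2%) each lay below.

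The changes upward were larger than those downward. Among genes called higher the median size was 1.66 on the log2 scale and 1008 genes passed 2, whereas among genes called lower the median was 0.92 and 215 passed 2. Of the genes called higher, 148 had no count in any +MyoD library, so that their fitted fold changes are not bounds. The genes called lower were the more abundant: they took 28.99 to 40.23% of the counts of the +MyoD libraries and 15.28 to 15.97% of the SP libraries. The genes called higher went from 6.43 to 7.70% of the counts to 15.62 to 18.25%. The direction was the same in all 3 MEF lines for 2441 of the genes called higher and for 1789 of those called lower.

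**Figure D1:**
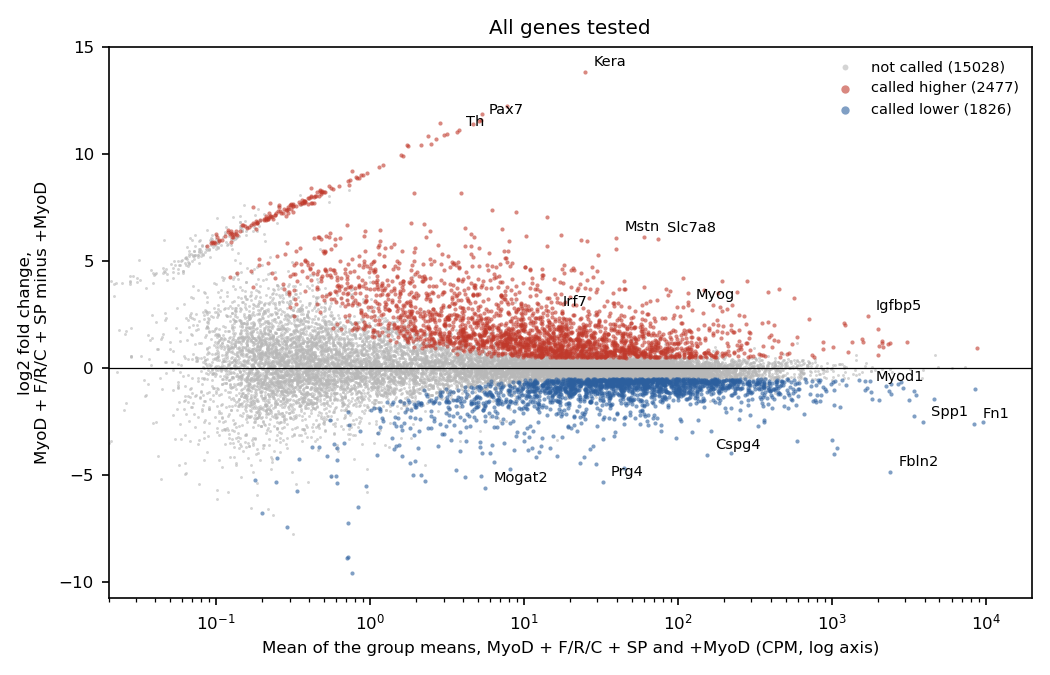
Each point is 1 of the 19331 genes tested. The horizontal axis is the mean of the 2 group means in CPM on a log axis, the vertical axis the fitted log2 fold change, and colour the call. The genes called higher reach farther from 0 than those called lower, and the band of points at the upper left is made of genes without counts in the +MyoD libraries.

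The genes with the largest changes came from several unrelated families. Kera, which encodes the small proteoglycan keratocan, was not counted in any +MyoD library and stood at 75.3, 45.9 and 29.2 CPM with the SP cocktail, at least 1696-fold higher (3 counts over the group taken as the floor). Pax7, Th and Grp, described below or encoding gastrin-releasing peptide, stood at 0 in +MyoD as well. Another 5 of the 10 highest were major urinary protein genes. These are near-identical copies between which kallisto divides reads, and summed over 16 Mup genes tested the level was 0.0627, 0 and 0.386 CPM in +MyoD and 94.2, 51.6 and 75.2 CPM with the SP cocktail.

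Among genes outside every list, Slc7a8, a transporter of neutral amino acids, had the smallest p: it rose from 2.94, 1.77 and 1.99 CPM to 171, 140 and 130 CPM (log2 fold change 6.06 ± 0.20, edgeR adjusted p = 3.35e-09). Mstn, which encodes the muscle growth inhibitor myostatin, rose from 1.10, 0.378 and 2.19 CPM to 87.8, 59.6 and 85.9 CPM (6.09 ± 0.34). In both genes the lowest SP library exceeded the highest +MyoD library many times over. At the other end, Mogat2, an acyltransferase of triglyceride synthesis, went from 7.61, 18.6 and 6.59 CPM to 0.235, 0.506 and 0 CPM (-5.59 ± 0.87). Prg4, which encodes the joint lubricant lubricin, fell from 19.1, 69.8 and 101 CPM to 1.96, 0.806 and 1.54 CPM (-5.31 ± 0.57). Cspg4, the pericyte proteoglycan NG2, fell from 300, 375 and 197 CPM to 14.7, 20.9 and 16.8 CPM (-4.05 ± 0.24, edgeR adjusted p = 4.78e-07). Dcstamp, a fusion protein of osteoclasts, was counted at 0.908, 1.40 and 2.25 CPM in +MyoD and not in the SP libraries, at least 58.6-fold lower, though its call was lost without any 1 of the SP libraries or without line 2 or 3 of +MyoD (adjusted p of 0.0631 to 0.0929).

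By difference in CPM the gains were led by the mitochondrial genes mt-Co1, mt-Cytb and mt-Co2, by Igfbp5 and by the basement membrane collagen gene Col18a1, which rose from 619, 989 and 963 CPM to 3486, 3296 and 2555 CPM. The losses were led by the matrix genes Thbs1, Fn1, Col1a1, Spp1 and Bgn; of these the call of Col1a1 was lost without line 2 of the SP cocktail (adjusted p = 0.107) or of +MyoD (adjusted p = 0.0786). Thrombospondin 1 (Thbs1) alone stood at 13840, 24360 and 10990 CPM in +MyoD, and at 2529, 2736 and 3214 CPM with the SP cocktail.

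**Figure D2:**
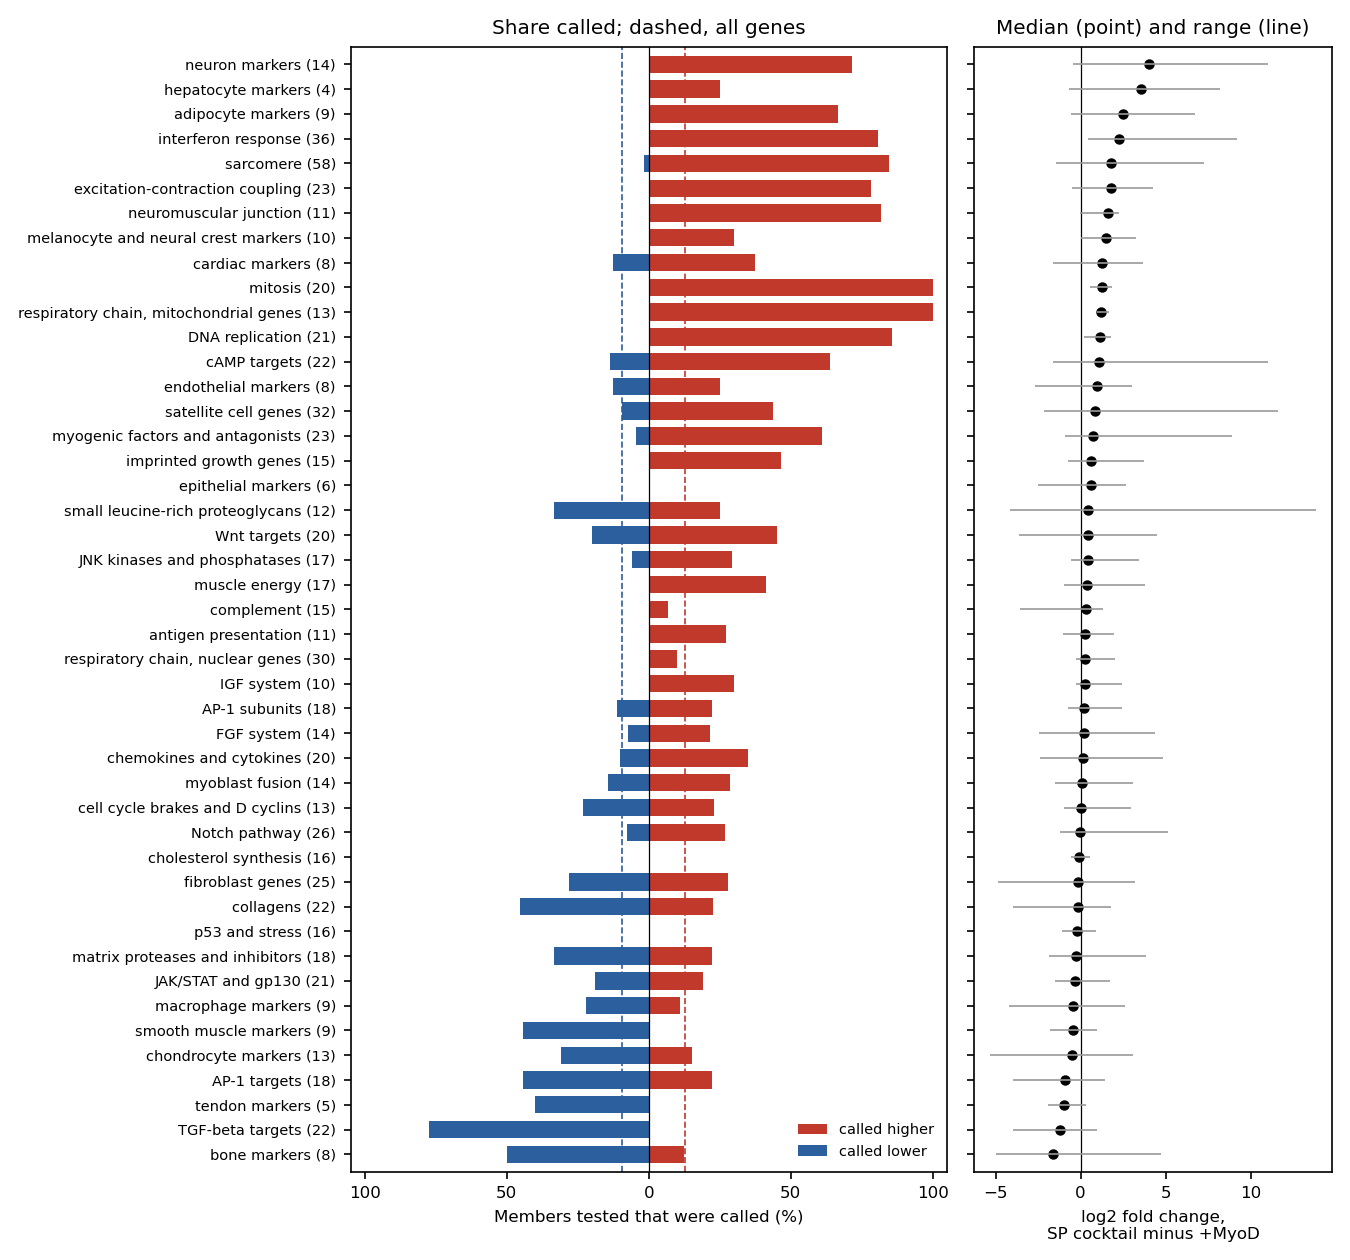
Left, the share of tested members called higher (red, to the right) and lower (blue, to the left) in each of 45 gene lists, with the number tested in brackets and the share over all genes dashed. Right, the median log2 fold change of the list (point) and its range (line). Lists are ordered by their median. Neuron, hepatocyte and adipocyte markers stand at the top, followed by the interferon response and the sarcomere, and TGF-β targets and bone markers at the foot.

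Satellite cell genes were divided by role. Of 12 transcription factors 9 rose and none fell, whereas of 20 surface and signalling genes 5 rose and 3 fell; over all 32 members the median log2 fold change was 0.85. The number that fell was 1 without any 1 of the SP libraries or without line 2 of +MyoD. Pax7 (chr4:139737062-139833528), the paired-box factor that defines the satellite cell, had no count in the 3 +MyoD libraries and reached 5.97, 20.4 and 4.99 CPM with the SP cocktail, at least 371.8-fold higher. The level in line 2 was several times that of the other lines, and it was above 0 in each. Myf5, the myogenic factor of satellite cells and embryonic myoblasts, was at 0 in +MyoD and at 1.07, 2.81 and 1.03 CPM with the SP cocktail, at least 57.2-fold higher. Dmrt2, an activator of Myf5 in the somite, rose from 0.0626, 0.466 and 0.208 CPM to 3.02, 12.3 and 5.63 CPM (log2 fold change 4.84 ± 0.46, edgeR adjusted p = 9.68e-06).

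Sox8 also rose, by 2.48 on the log2 scale. Msc (musculin), Hey1 and Heyl were called at 4.87, 2.92 and 2.83, but Msc was not called in the 6-library fit. Hey1 lost its call without line 3 of the SP cocktail (adjusted p = 0.0610), and Heyl without line 2 or 3 of the SP cocktail or of +MyoD (adjusted p of 0.0774 to 0.135). Pax3, Hes1 and Six4 did not pass the test.

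On the cell surface, Fgfr4, the FGF receptor of myoblasts, rose from 1.03, 1.86 and 0.623 CPM to 15.2, 44.6 and 15.7 CPM (4.37 ± 0.40, edgeR adjusted p = 8.74e-06), again with line 2 the highest. M-cadherin (Cdh15) rose from 36.8, 10.7 and 29.9 CPM to 164, 255 and 206 CPM (3.10 ± 0.36). The groups did not overlap in either gene. The heparan sulfate proteoglycan syndecan 3 went the other way, and Sdc3 fell from 488, 675 and 277 CPM to 119, 107 and 89.1 CPM (-2.16 ± 0.23). Calcr, the calcitonin receptor of quiescent satellite cells, had a log2 fold change of 2.88 and did not pass the test, and Notch3, Cd34, Ncam1 and Itga7 did not pass either.

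**Figure D3:**
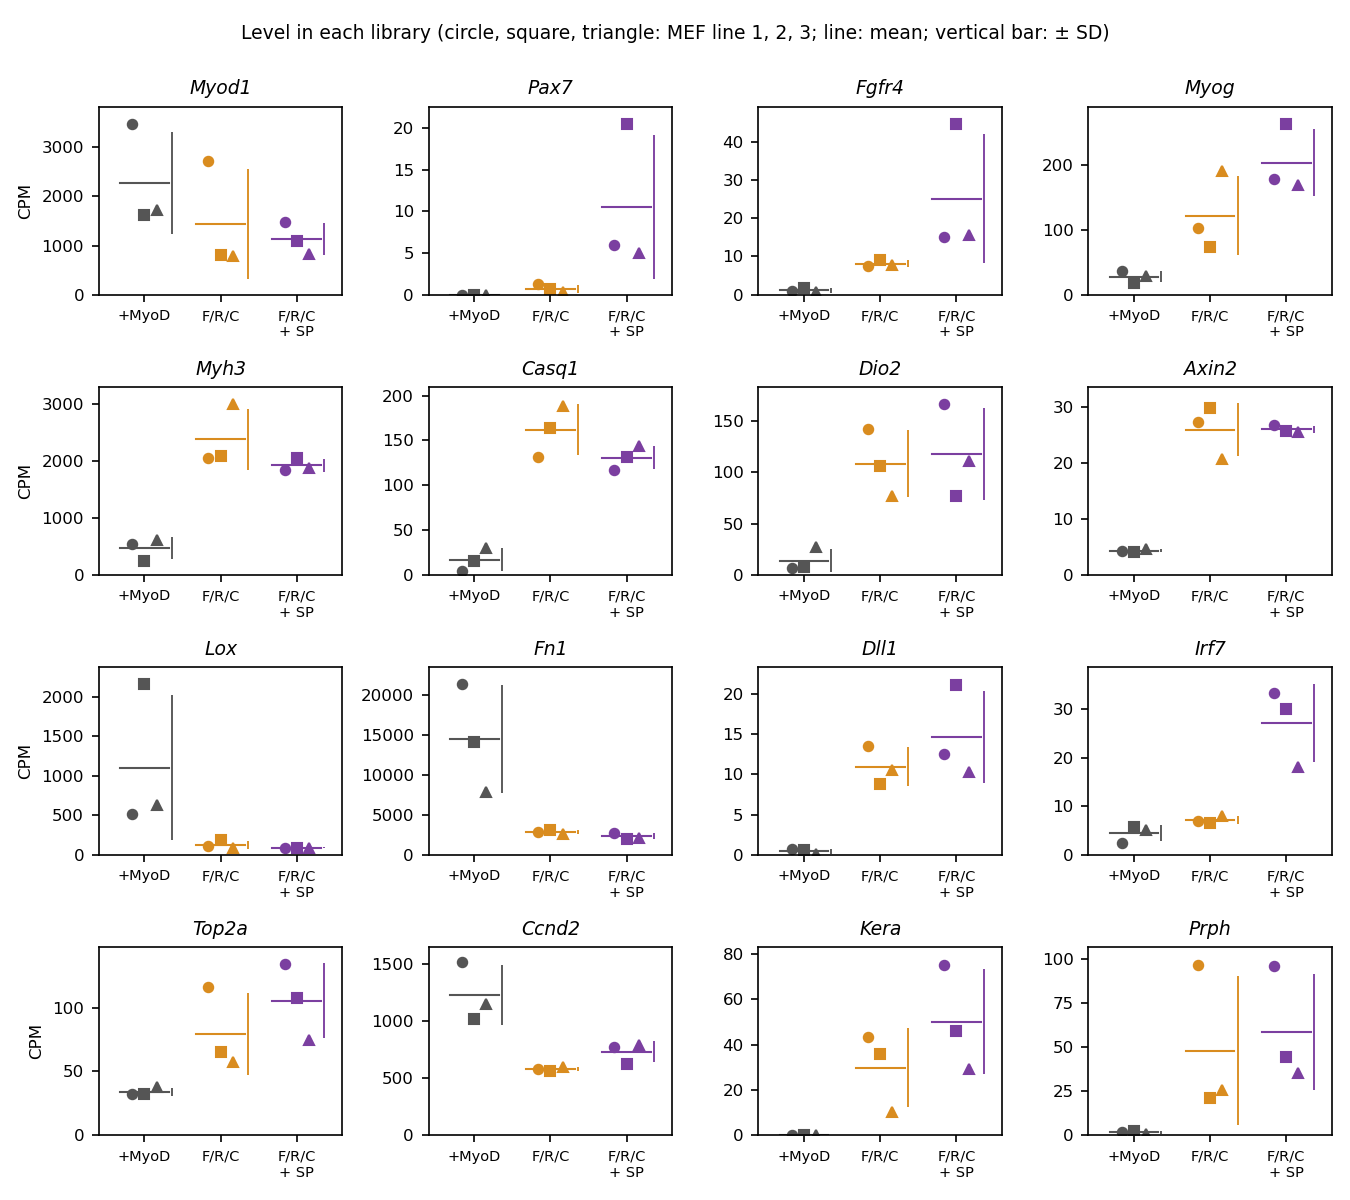
Levels in CPM of 16 genes in the libraries without compounds, with F/R/C alone and with the SP cocktail, 3 each, with the symbol giving the MEF line, the horizontal line the mean and the vertical bar the SD. Every axis starts at 0. Pax7 is at 0 in all +MyoD libraries, and Irf7 lies between 18.1 and 33.3 CPM in the SP libraries and below 8 CPM in the other 6.

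The remaining myogenic regulatory factors rose while Myod1 fell. Myog (myogenin), which commits myoblasts to differentiate, went from 36.6, 18.6 and 28.0 CPM to 179, 263 and 168 CPM (2.93 ± 0.39, edgeR adjusted p = 0.000114). Myf6 (Mrf4) went from 0.532, 0.0873 and 1.54 CPM to 11.6, 12.7 and 11.98 CPM (4.23 ± 0.56). Neither gene overlapped between groups. Of 11 partner genes 5 rose, among them Mef2c at 1.10 ± 0.18, and none fell, but their median log2 fold change was -0.12. In 5 of the 11 each SP library lay above each +MyoD library, and in 2 each lay below (18.9% and 15.2% of all genes tested).

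Of the 8 antagonists of MyoD in the list 6 rose too. Id4, whose product binds E proteins and keeps them from DNA, stood at 3.73, 3.06 and 3.35 CPM in +MyoD and at 33.4, 23.8 and 30.6 CPM with the SP cocktail (3.10 ± 0.21, edgeR adjusted p = 8.64e-07). Id2 and Id1 rose by 1.61 and 0.98, and Twist1, a mesenchymal helix-loop-helix factor, by 1.14. Id3 and Mdfi did not pass the test.

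Genes of the contractile apparatus rose almost as a whole. Of 58 sarcomere genes 49 were called higher and 1 lower (43 and 0 in the 6-library fit), with a median log2 fold change of 1.79, and their summed level went from between 6039 and 6693 CPM to between 13700 and 16180 CPM. Embryonic myosin (Myh3, chr11:67078300-67102291) rose from 534, 246 and 618 CPM to 1844, 2048 and 1866 CPM (2.10 ± 0.28), and perinatal myosin (Myh8) from 187, 198 and 366 CPM to 1119, 1218 and 1177 CPM (2.29 ± 0.20). Both were tightly grouped with the SP cocktail and well apart from +MyoD. The adult fast chains Myh1 and Myh2 rose by 2.88 and 2.11, whereas the slow chain Myh7 stood at 61.1, 51.2 and 53.2 CPM in +MyoD and at 61.4, 63.2 and 44.5 CPM with the SP cocktail and did not pass the test.

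In the thin filament 15 of 16 genes rose. Cardiac α-actin (Actc1), the actin of embryonic skeletal muscle, went from 138, 70.8 and 125 CPM to 890, 1103 and 1071 CPM (3.26 ± 0.33), and fast troponin C (Tnnc2) rose by 2.72. The exception was Tpm1, which fell by 0.61, a call that was lost without line 1 or 2 of the SP cocktail or of +MyoD (adjusted p of 0.0501 to 0.0704). Its gene also makes non-muscle tropomyosins, and the summed counts do not tell the isoforms apart. In the Z-disc and M-band 22 of 25 genes rose, among them titin (Ttn, 2.49 ± 0.25) and Myoz1 (4.62), and in the light chains 5 of 8. Myl2 and Myl3, the slow light chains, had log2 fold changes of -0.59 and -1.44 and did not pass the test.

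Genes that couple excitation to contraction followed, with 18 of 23 called higher, none lower and a median of 1.79. Casq1, the calcium buffer of the sarcoplasmic reticulum, rose from 4.73, 15.1 and 30.2 CPM to 117, 131 and 143 CPM (3.19 ± 0.34, edgeR adjusted p = 2.23e-05). The ryanodine receptor Ryr1 and the fast calcium pump Atp2a1 rose by 1.79 and 1.70. At the neuromuscular junction 9 of 11 genes rose, including the fetal acetylcholine receptor subunit Chrng (1.82) and the MuSK activator Dok7 (2.27). The adult subunit Chrne was at 0 counts in all 6 libraries.

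Of 14 fusion genes 4 rose and 2 fell. The fusogen myomaker (Mymk) went from 55.6, 26.6 and 53.2 CPM to 109, 177 and 155 CPM (1.72 ± 0.32), and its partner myomixer (Mymx) from 8.87, 10.04 and 10.98 CPM to 12.2, 19.5 and 14.8 CPM without passing the test (0.63 ± 0.22, edgeR adjusted p = 0.0526). The membrane repair genes Dysf and Myof fell by 1.53 and 0.86. Of 17 genes of muscle energy metabolism 7 rose and none fell. Muscle glycogen phosphorylase (Pygm) went from 20.1, 18.8 and 30.8 CPM to 96.7, 128 and 126 CPM (2.34 ± 0.15) and muscle creatine kinase (Ckm) from 2.91, 4.83 and 5.16 CPM to 7.62, 16.9 and 14.7 CPM (1.57 ± 0.22). The general glycolysis genes Gapdh and Ldha did not pass the test.

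The E-box CAGCTG, a letter string that MyoD and its relatives bind, was looked for on both strands from 250 bases before to 50 bases after the RefSeq start of each gene. It stood in 17 of the 44 sarcomere promoters that could be matched (38.64%), in 5 of 13 excitation-contraction promoters and in 4944 of all 27025 promoters given (18.29%). Among promoters of genes called higher the share was 22.35% and among those called lower 20.64%. High shares were not limited to muscle lists. The E-box stood in 5 of 13 Wnt target promoters (38.46%), 4 of 9 of neuron markers (44.44%) and 8 of 27 of the interferon list (29.63%). In AP-1 and TGF-β targets it stood in 2 of 10 each, and in satellite cell genes in 2 of 20 (10%). The promoters of Mylpf, a fast light chain gene that rose by 1.69, and of Casq1 are shown, 5′ to 3′ on the strand of the gene (RefSeq, GRCm38.p6), with the E-box in capitals. A match of letters is a description and not a binding site.
Mylpf, chr7:127211358-127211657, plus strand: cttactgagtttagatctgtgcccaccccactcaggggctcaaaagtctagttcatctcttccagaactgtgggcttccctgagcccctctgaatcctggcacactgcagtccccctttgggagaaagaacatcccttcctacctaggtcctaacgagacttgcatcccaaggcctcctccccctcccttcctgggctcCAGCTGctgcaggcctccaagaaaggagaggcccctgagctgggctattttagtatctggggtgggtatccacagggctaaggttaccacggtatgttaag
Casq1, chr1:172219846-172220145, minus strand: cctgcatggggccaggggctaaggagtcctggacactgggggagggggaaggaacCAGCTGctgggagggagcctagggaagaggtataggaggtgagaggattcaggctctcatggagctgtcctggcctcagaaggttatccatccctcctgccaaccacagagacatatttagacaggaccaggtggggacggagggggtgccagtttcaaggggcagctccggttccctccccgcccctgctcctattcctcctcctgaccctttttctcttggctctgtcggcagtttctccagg

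Targets of cAMP signalling mostly rose. When cAMP rises, protein kinase A phosphorylates CREB, which binds the cAMP response element in promoters. Of 22 genes of the list 14 rose and 3 fell, with a median of 1.05; in the 6-library fit the counts were 9 and 2. Th, the rate-limiting enzyme of catecholamine synthesis, had no count in +MyoD and stood at 13.7, 4.05 and 4.39 CPM with the SP cocktail, at least 246.1-fold higher (voom adjusted p = 0.0673). The hormone gene Sst (somatostatin) was at 0 in +MyoD and at 6.23, 2.28 and 4.30 CPM with the SP cocktail, at least 139.3-fold higher. Line 1 was the highest of the lines in both. Dio2, which activates thyroid hormone, rose from 6.83, 7.39 and 26.9 CPM to 166, 77.0 and 112 CPM (3.14 ± 0.43, edgeR adjusted p = 0.000152).

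The phosphodiesterase gene Pde3b rose by 1.88 ± 0.15 and the salt-inducible kinase gene Sik1 by 1.16. The 3 members that fell were Bdnf from 77.8, 61.1 and 63.3 CPM to 25.5, 12.8 and 29.6 CPM (-1.61 ± 0.22), Nr4a2 by 0.98 and Pde4a by 0.81; Pde4a was not called without line 1 or 2 of the SP cocktail (adjusted p = 0.151 and 0.0710) or line 1 of +MyoD (adjusted p = 0.124). Bdnf encodes a neurotrophin, Nr4a2 an orphan nuclear receptor and Pde4a another phosphodiesterase.

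The full cAMP response element TGACGTCA stood in 5 of the 17 cAMP target promoters matched (Dio2, Dusp1, Scg2, Sst and Th, 29.41%), in 2.031% of all promoters given, in 3.378% of those of genes called higher and in 2.27% of those called lower. The promoters of Sst and Th, both silent with +MyoD, hold the element in capitals 48 and 45 bases before the start.
Sst, chr16:23890795-23891094, minus strand: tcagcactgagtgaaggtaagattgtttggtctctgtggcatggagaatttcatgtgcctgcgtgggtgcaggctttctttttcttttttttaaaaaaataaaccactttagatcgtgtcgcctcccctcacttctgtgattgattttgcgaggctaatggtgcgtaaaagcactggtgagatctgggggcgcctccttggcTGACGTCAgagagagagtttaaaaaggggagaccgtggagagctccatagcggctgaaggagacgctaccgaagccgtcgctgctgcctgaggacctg
Th, chr7:142899946-142900245, minus strand: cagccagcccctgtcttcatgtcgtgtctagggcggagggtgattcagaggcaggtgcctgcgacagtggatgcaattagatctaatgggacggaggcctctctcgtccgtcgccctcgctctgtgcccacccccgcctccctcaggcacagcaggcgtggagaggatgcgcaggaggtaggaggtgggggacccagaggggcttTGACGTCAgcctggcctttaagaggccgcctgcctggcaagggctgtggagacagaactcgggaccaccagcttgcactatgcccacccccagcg

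Wnt target genes were divided. Of 20 members 9 rose and 4 fell. Axin2, the feedback scaffold most used as a readout of β-catenin, stood at 4.32, 4.04 and 4.60 CPM in +MyoD and at 26.8, 25.7 and 25.7 CPM with the SP cocktail (2.59 ± 0.19, edgeR adjusted p = 1.93e-06). Notum, a secreted deacylase that inactivates Wnt, went from 7.52, 1.14 and 10.4 CPM to 68.0, 75.5 and 87.7 CPM (3.71 ± 0.52), and Nkd1, an intracellular inhibitor, rose by 2.62. These 3 genes were alike in all lines with the SP cocktail. Tnfrsf19 (Troy) rose most, from 1.66, 1.14 and 1.90 CPM to 36.5, 38.3 and 30.1 CPM (4.47 ± 0.24, edgeR adjusted p = 3.14e-07).

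Against these, the R-spondin receptor Lgr6 fell from 23.3, 25.7 and 22.8 CPM to 1.82, 1.70 and 2.39 CPM (-3.62 ± 0.27). Ccnd1, Bambi and the receptor Fzd7 fell by 0.97, 1.03 and 0.54; Fzd7 was at -0.50 without line 2 of the SP cocktail (adjusted p = 0.0524) and at -0.48 and -0.49, within the size threshold, without line 1 and 2 of +MyoD. Lgr5, Lef1, Myc, Rnf43 and Znrf3 did not pass the test. The TCF/LEF letters CTTTGAT stood in 2 of 13 Wnt target promoters matched (Sp5 and Tnfrsf19, 15.38%) and in 4.292% of all promoters. The 1 shown, of 2 that RefSeq gives for Tnfrsf19, has them in capitals on the opposite strand, 202 bases before the start.
Tnfrsf19, chr14:61037938-61038237, minus strand: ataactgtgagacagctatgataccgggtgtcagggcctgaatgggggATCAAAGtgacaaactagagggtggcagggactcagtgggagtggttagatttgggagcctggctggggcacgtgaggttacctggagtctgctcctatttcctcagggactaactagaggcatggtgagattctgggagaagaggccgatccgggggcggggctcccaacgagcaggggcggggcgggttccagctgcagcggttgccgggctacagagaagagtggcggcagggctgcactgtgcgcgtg

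Of 22 TGF-β targets 17 fell and none rose, and the median log2 fold change was -1.20; 15 fell in the 6-library fit. The summed level of the list went from between 31710 and 74840 CPM to between 12310 and 13760 CPM. The connective tissue growth factor Ccn2 fell from 1523, 3195 and 719 CPM to 134, 171 and 234 CPM (-3.35 ± 0.56), and lysyl oxidase (Lox), which crosslinks collagen, from 522, 2155 and 627 CPM to 83.6, 92.2 and 91.5 CPM (-3.40 ± 0.35). The +MyoD libraries spread over several-fold in both genes and lay above the SP libraries.

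The inhibitors that TGF-β induces on its own pathway fell as well, Ldlrad4 by 3.89, Skil by 1.69, Pmepa1 by 1.49, Ski by 1.17 and Smad7 by 1.14. Fibronectin (Fn1) went from 21390, 14180 and 7880 CPM to 2736, 2049 and 2124 CPM (-2.61 ± 0.26). The transcription factors Snai1 and Snai2, Il11, Tgfbi and Postn did not pass the test.

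**Figure D4:**
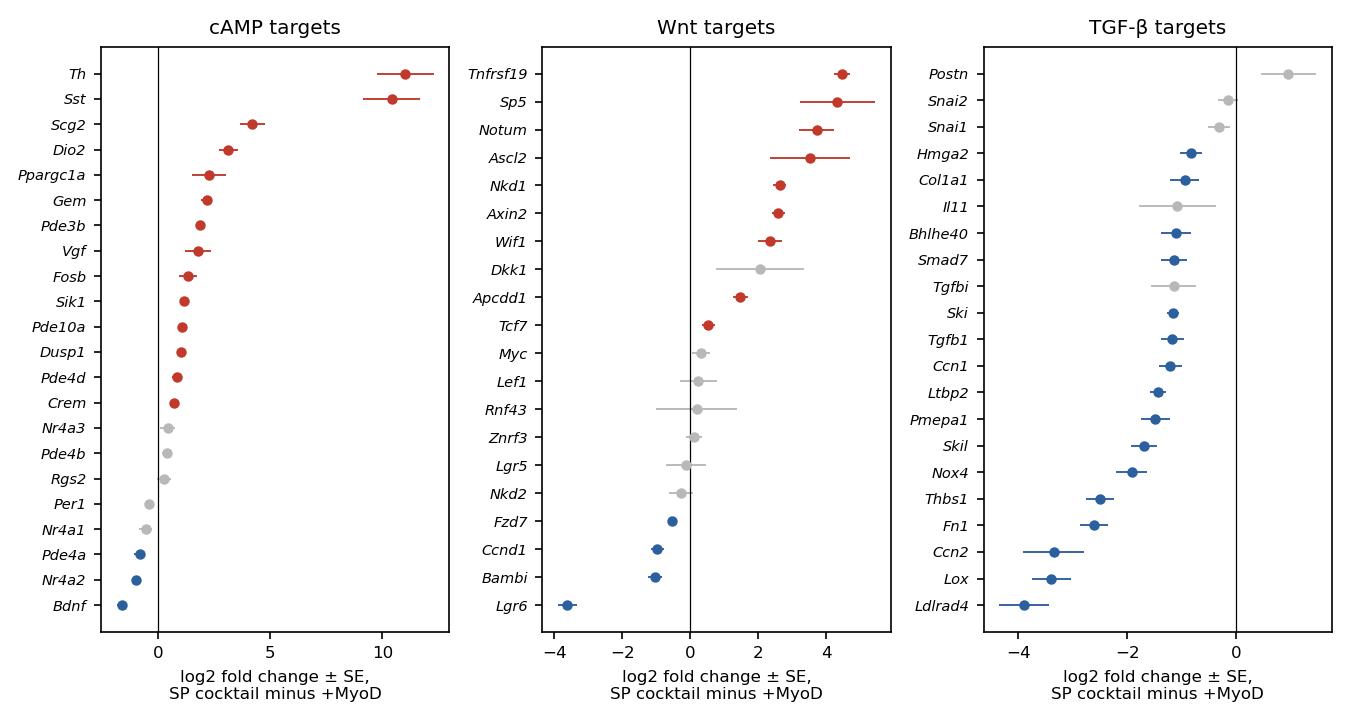
Fitted log2 fold change, SP cocktail minus +MyoD, with its SE for 22, 20 and 21 tested members of the lists of cAMP, Wnt and TGF-β targets. Red marks genes called higher, blue genes called lower and grey genes not called; 14, 9 and 0 of those drawn were called higher.

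Some genes of the JNK pathway itself changed. Of 17 kinases, scaffolds and phosphatases 5 rose and 1 fell, where 12.8% of all genes tested rose and 9.45% fell. Of the 10 kinases 1 rose and 1 fell. The 5 members that rose were Mapk10, the JNK of neurons, (2.63), the scaffolds Mapk8ip2 and Mapk8ip1 (3.46 and 1.06) and the phosphatases Dusp10 and Dusp1 (1.31 and 1.03). The 1 that fell was the kinase gene Map3k12, by 0.54, a call lost without line 1 or 3 of the SP cocktail or line 2 or 3 of +MyoD (adjusted p of 0.0566 to 0.149), while 2 members fell without line 1 of +MyoD. The ubiquitous kinases Mapk8 and Mapk9 had log2 fold changes of 0.38 and -0.29 and did not pass. SP600125 acts on the kinase and not on its mRNA, so that these levels do not measure the inhibition.

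Among 18 AP-1 subunits 4 rose and 2 fell, where 12.8% of all genes tested rose and 9.45% fell. Of these subunits 2 rose without line 1 or 2 of the SP cocktail or line 2 of +MyoD, 1 fell without line 1 or 2 of the SP cocktail and 4 fell without line 3 of +MyoD. Jun went from 113, 189 and 157 CPM to 208, 365 and 239 CPM (0.80 ± 0.21, edgeR adjusted p = 0.0106), and Fos from 12.8, 127 and 108 CPM to 118, 290 and 161 CPM, with overlapping groups; its call was lost without any 1 of the SP libraries or without line 2 of +MyoD (adjusted p of 0.0551 to 0.0947). Fosl2 fell by 0.72. Junb and Jund did not pass the test. Of 18 AP-1 targets 8 fell and 4 rose, with a median of -0.91. Against F/R/C alone, the contrast that differs by SP only, the median of the 18 was 0.30. There 6 were higher and none lower at an unadjusted p under 0.05 by edgeR's test, where 5.27% of all genes tested were higher. Ccnd1, which also stands in a list above, was among the 8, as were Hbegf, a ligand of the EGF receptor (-2.35), and the metalloprotease inhibitor Timp1 (-1.63). The 4 that rose were Mmp13, Areg, Ereg and Ccl2, each by 1.43 or less; 1 rose without line 3 of the SP cocktail, and 2 without its line 2 or without line 1 or 2 of +MyoD.

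Members of the Notch pathway, by which neighbouring cells hold satellite cells undifferentiated, were divided by role. Of 7 ligands 4 were called higher and none lower, of 4 receptors 1 was called lower and none higher, and over the 26 members tested 7 rose and 2 fell (4 and 2 in the 6-library fit). Without line 3 of the SP cocktail 4 rose, and without line 3 of +MyoD 4 fell. In 3 of the 7 ligands each SP library lay above each +MyoD library, as in 18.9% of all genes tested. Over all genes tested 12.8% were called higher and 9.45% lower. The call of the ligand gene Dlk1 was lost without line 1 or 2 of the SP cocktail or line 1 or 3 of +MyoD (edgeR adjusted p of 0.052 to 0.0878). Dll1, the ligand made by differentiating myoblasts, went from 0.689, 0.553 and 0.0593 CPM to 12.6, 21.1 and 10.3 CPM (5.14 ± 0.49, edgeR adjusted p = 1.03e-05). Notch2 fell from 214, 157 and 141 CPM to 102, 85.7 and 91.8 CPM (-0.87 ± 0.15). The targets Hey1 and Heyl were called higher with the losses given above, while Hes1 and Nrarp did not pass and Hes5 was at 0 counts in all 6 libraries.

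Cell cycle genes rose together. All 20 mitosis genes of the list were called higher, with a median of 1.26 (16 in the 6-library fit), and 18 of 21 DNA replication genes, with a median of 1.13 (12 in the 6-library fit). Mki67, the proliferation antigen, went from 26.6, 28.5 and 29.8 CPM to 101, 74.9 and 54.6 CPM (1.37 ± 0.19), and Top2a, which untangles sister chromatids, from 32.3, 32.3 and 37.8 CPM to 134, 108 and 74.9 CPM (1.56 ± 0.20). The +MyoD libraries were close together, and line 1 was the highest and line 3 the lowest with the SP cocktail. Of the replication genes Mcm3 and Mcm5 rose by 1.77 and 1.53 and Pcna by 1.25.

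Genes that restrain or start the cycle did not follow as a group, with 3 of 13 higher and 3 lower. The CDK inhibitor Cdkn1c (p57), an imprinted gene of myogenic exit, rose from 23.8, 89.8 and 46.6 CPM to 316, 525 and 342 CPM (2.94 ± 0.32, edgeR adjusted p = 2.46e-05). The D cyclins fell, Ccnd2 from 1520, 1018 and 1151 CPM to 775, 627 and 792 CPM (-0.74 ± 0.12) and Ccnd1 by 0.97, whereas Ccnd3 did not pass. Cdkn1a (p21) did not pass the test either, at a log2 fold change of -0.21.

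Matrix genes changed in both directions. Of 22 collagen genes 10 fell and 5 rose, and their summed level was between 27330 and 65520 CPM in +MyoD and between 27310 and 33120 CPM with the SP cocktail, with overlapping groups. Col11a1 fell from 233, 780 and 245 CPM to 36.7, 20.6 and 18.3 CPM (-3.98 ± 0.42) and the basement membrane chain Col4a5 from 222, 258 and 174 CPM to 27.0, 34.1 and 22.4 CPM (-2.97 ± 0.23). Col15a1 and Col6a3 rose by 1.31 and 1.05, and Col3a1, Col4a1 and Col4a2 did not pass. Fbln2 (fibulin 2) fell the most of the fibroblast list, from 5153, 6102 and 2674 CPM to 123, 171 and 177 CPM (-4.84 ± 0.29, edgeR adjusted p = 4.78e-07).

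The 25 fibroblast genes split by role, with 7 higher and 7 lower. Of 13 matrix and cytoskeleton genes 6 fell and 1 rose, Vim by -1.07 ± 0.13, while of 5 transcription factors 4 rose and none fell. In the 6-library fit 1 fibroblast gene was higher and 7 lower, and the number higher was 3 without any 1 of the SP libraries and 4 without line 1 of +MyoD. The receptor Pdgfra went from 61.7, 253 and 323 CPM to 569, 544 and 576 CPM, a call (1.45 ± 0.43) that was lost without any 1 of the SP libraries (adjusted p of 0.0516 to 0.0612), and Thy1 did not pass.

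Small leucine-rich proteoglycans, which bind collagen fibrils, changed in both directions by large amounts, with 3 of 12 higher and 4 lower (2 lower without line 2 or 3 of the SP cocktail or line 2 of +MyoD). Decorin (Dcn) went from 20.3, 71.2 and 95.1 CPM to 756, 677 and 679 CPM (3.58 ± 0.41), and lumican (Lum) from 8.39, 47.0 and 57.5 CPM to 597, 377 and 357 CPM (3.54 ± 0.57). With Kera, described above, these are neighbours on chromosome 10, Dcn at chr10:97479609-97518143, Lum at chr10:97565128-97572703 and Kera at chr10:97606879-97613692. Biglycan (Bgn), on the X chromosome, fell from 5414, 7027 and 4619 CPM to 1273, 1117 and 1140 CPM (-2.25 ± 0.14) and asporin (Aspn) by 4.13. Of the protease inhibitors Timp1 and Timp2 fell by 1.63 and 1.12. The procollagen and aggrecan proteases Adamts2 and Adamts15 rose by 2.08 and 3.44.

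Interferon-stimulated genes were higher with the SP cocktail. They are induced through STAT factors and Irf9 when type I interferon binds its receptor, and transfected RNA is among the known triggers of interferon. All cultures of both groups had been transfected with the mRNA in medium with B18R. Of 36 members tested 29 rose and none fell, with a median of 2.26; in the 6-library fit 18 rose and none fell. Irf7, the factor that amplifies the response (chr7:141262706-141266481), stood at 2.54, 5.82 and 5.16 CPM in +MyoD and at 33.3, 29.9 and 18.1 CPM with the SP cocktail (2.62 ± 0.31, edgeR adjusted p = 5.50e-05). Isg15, a ubiquitin-like modifier, went from 0.595, 2.07 and 2.67 CPM to 28.5, 21.9 and 17.1 CPM (3.69 ± 0.67), and Oasl2 from 0.251, 1.83 and 2.55 CPM to 58.7, 37.7 and 23.8 CPM (4.70 ± 0.61).

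Within each of these genes line 1 was the lowest of the +MyoD libraries and the highest of the SP libraries. Oas1a, a sensor enzyme of double-stranded RNA, was at 0 in +MyoD and at 2.06, 1.38 and 1.15 CPM with the SP cocktail, at least 51.4-fold higher. Irf9, which joins the STAT factors in their complex on DNA, rose by 1.16. Ddx58, Irf1, Tlr3, Eif2ak2, Ifitm3, Cmpk2 and Samd9l did not pass the test. The MHC class I chains H2-K1 and H2-D1, whose reads can be shared between near-identical genes, and B2m did not pass, and of 8 processing genes 3 rose. Of 21 genes of JAK/STAT and gp130 signalling 4 rose and 4 fell, though 2 rose without any 1 of the SP libraries or line 1 of +MyoD, while 2 fell without line 2 of either group and 7 without line 1 of +MyoD; the feedback inhibitors Socs1, Socs2 and Socs3 did not pass.

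With F/R/C and no SP, Irf7 stood at 6.92, 6.56 and 7.98 CPM, Isg15 at 3.50, 2.30 and 6.98 CPM and Oasl2 at 10.5, 6.54 and 13.7 CPM, below each SP library in the 3 genes. The interferon letters GAAANNGAA stood on either strand in 16 of the 27 promoters of the list that were matched (59.26%), against 9.761% of all promoters, 10.02% of those of genes called higher and 6.667% of those called lower. The Isg15 promoter holds 3 copies that overlap, in capitals, 66 to 78 bases before the start.
Isg15, chr4:156200769-156201068, minus strand: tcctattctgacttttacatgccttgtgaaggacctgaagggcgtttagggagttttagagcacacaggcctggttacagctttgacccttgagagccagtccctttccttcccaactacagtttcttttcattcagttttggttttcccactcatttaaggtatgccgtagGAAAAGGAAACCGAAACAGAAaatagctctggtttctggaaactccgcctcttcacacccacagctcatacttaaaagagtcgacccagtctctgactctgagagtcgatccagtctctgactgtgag

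**Figure D5:**
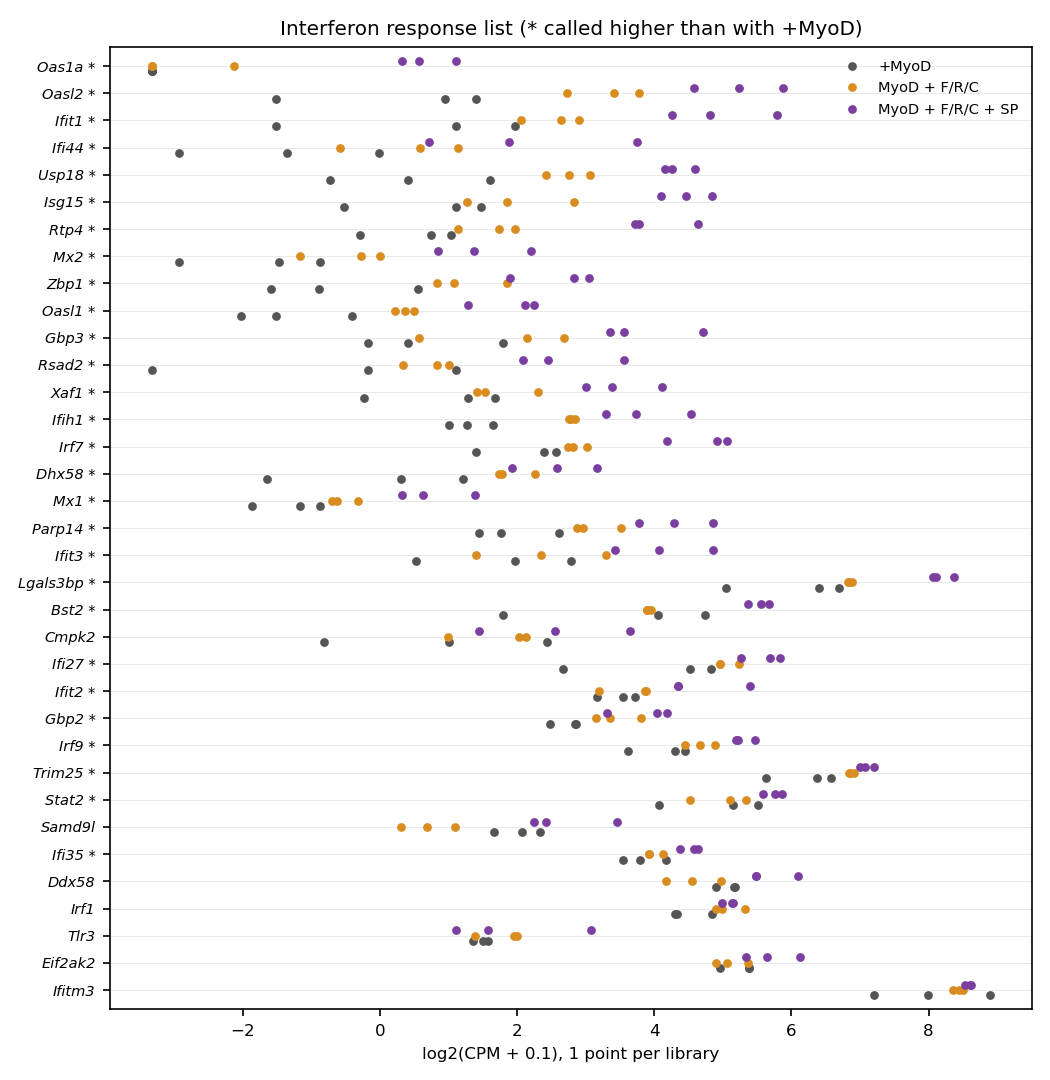
Each row is 1 of 35 interferon genes tested and each point 1 library, on the scale log2(CPM + 0.1), in cultures without compounds, with F/R/C alone and with the SP cocktail. An asterisk marks the 28 genes called higher than with +MyoD. In most rows the 3 SP points lie to the right of the other 6.

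Chemokine genes rose in 7 of 13 tested and fell in 1. Of the whole list with cytokines 3 rose without line 2 of the SP cocktail or of +MyoD and 4 without line 3 of the SP cocktail or line 1 of +MyoD, and in the last of these 4 fell. Ccl8 went from 1.10, 0.931 and 1.63 CPM to 30.7, 34.2 and 39.9 CPM (4.84 ± 0.53) and the eosinophil attractant Ccl11 from 4.39, 5.79 and 14.3 CPM to 147, 81.1 and 110 CPM (3.78 ± 0.40). Cxcl12, the ligand of Cxcr4, fell from 315, 930 and 593 CPM to 91.3, 134 and 104 CPM (-2.42 ± 0.23), and the macrophage growth factor Csf1 fell by 1.77.

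Growth factor genes changed in a few large steps. Igfbp5, an IGF binding protein of differentiating myoblasts, rose from 503, 292 and 840 CPM to 2898, 2722 and 2986 CPM (2.44 ± 0.29) and Igf1 from 7.99, 20.4 and 24.4 CPM to 97.0, 55.9 and 59.7 CPM (2.01 ± 0.34). Of 15 imprinted growth genes 7 rose and none fell, led by Peg10, from 92.0, 23.7 and 86.3 CPM to 984, 774 and 755 CPM (3.72 ± 0.33). Meg3 and Igf2 did not pass the test, and H19 passed it only without line 1 of +MyoD (-0.57, adjusted p = 0.0314). Fgf2 fell from 198, 178 and 160 CPM to 34.2, 29.2 and 32.9 CPM (-2.47 ± 0.22), while the receptors Fgfr4 and Fgfr2 rose by 4.37 and 1.59.

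All 13 protein-coding mitochondrial genes rose, with a median of 1.19 (12 in the 6-library fit), and their summed level went from between 15190 and 18190 CPM to between 28520 and 48790 CPM. mt-Cytb stood at 1587, 1648 and 2246 CPM in +MyoD and at 5472, 3427 and 3983 CPM with the SP cocktail. Of 30 nuclear genes of the respiratory chain 3 rose (Cox6a2, Cycs and Cyc1, by 2.03, 0.69 and 0.55) and none fell, while in 16 of the 30 each SP library lay above each +MyoD library (18.9% of all genes did) and in none below; 6 rose without line 3 of +MyoD, and Cyc1 was at 0.44 without line 2 of the SP cocktail. As poly-A selected libraries, they read mitochondrial transcripts by their tails.

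Markers of other cell types moved as well, and their part in the results above was not tested. Of 14 neuron markers 10 rose, with a median of 4.04, and their summed level went from between 130 and 235 CPM to between 295 and 774 CPM. Peripherin (Prph) rose from 1.72, 2.18 and 0.415 CPM to 96.0, 44.6 and 35.1 CPM (5.28 ± 0.57) and dopamine β-hydroxylase (Dbh) from 3.70, 0.611 and 1.33 CPM to 58.3, 29.4 and 32.5 CPM (4.57 ± 0.44). The vesicle genes Chga and Snap25 rose by 5.13 and 4.22. Tubb3, Stmn2 and Map2, general markers of neurons, did not pass, and Th also stands in the cAMP list.

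Of 9 adipocyte markers 6 rose and none fell, and their sum went from between 24.7 and 77.5 CPM to between 161 and 195 CPM. In the 6-library fit 4 rose and none fell. Against F/R/C alone 6 of the 9 were higher at an unadjusted p under 0.05 by edgeR's test, where 5.27% of all genes tested were higher. The median difference there was 2.16, and DESeq2 called 1 of them, Cfd. Perilipin (Plin1) rose from 0.376, 0.262 and 3.17 CPM to 25.3, 30.9 and 18.1 CPM (4.62 ± 0.70), and Pparg, the master factor of adipocytes, from 3.32, 3.23 and 3.62 CPM to 19.7, 20.9 and 16.4 CPM (2.48 ± 0.22). Cfd (adipsin) was at 0, 0 and 0.119 CPM in +MyoD and at 4.49, 5.23 and 3.69 CPM with the SP cocktail.

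Markers of bone, cartilage and smooth muscle were divided between members that fell and members that did not pass or rose. Of 8 bone markers 4 fell (2 without line 3 of the SP cocktail), including Sp7 (osterix) from 6.52, 3.17 and 2.70 CPM to 0.313, 0.0921 and 0 CPM (-4.98 ± 0.80) and osteopontin (Spp1) from 5030, 6013 and 8828 CPM to 1049, 1040 and 1339 CPM (-2.51 ± 0.15), while alkaline phosphatase (Alpl) rose by 4.73. Of 13 chondrocyte markers 4 fell, including Col2a1 from 43.7, 13.2 and 11.7 CPM to 1.12, 0.806 and 1.60 CPM (-4.14 ± 0.53), and 2 rose (1 without line 2 or 3 of either group). Of 9 smooth muscle markers 4 fell and none rose, with 2 falling without any 1 of the SP libraries or without line 1 or 2 of +MyoD and 2 rising without its line 2; Tagln fell from 1953, 2267 and 958 CPM to 410, 480 and 682 CPM (-1.79 ± 0.35). Of 9 macrophage markers tested 1 rose and 2 fell (1 without line 1 or 2 of the SP cocktail or line 3 of +MyoD, none without line 2 of +MyoD), and their sum stayed between 15.4 and 29.9 CPM over the 6 libraries.

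The direct comparison of the SP cocktail with F/R/C alone was read from the fit of all 15 libraries. It gave 0 genes (0%) at the same thresholds by edgeR's quasi-likelihood test with Benjamini-Hochberg adjustment. At an unadjusted p under 0.05 there were 1747 genes, 1018 of them higher and 729 lower with SP, and the smallest adjusted p was 0.0710 (Galnt6, -1.55). DESeq2 called 95 higher and 64 lower, and limma-voom 78 and 46. EdgeR on only the 6 SP and F/R/C libraries, with the replicate block, called 92 and 87. Of these, 43 higher and 24 lower were shared by the 3 fits. In the fit of all 15 libraries edgeR's test showed for none of the genes described above a level apart from that with F/R/C alone. In edgeR's 6-library fit some genes described above were called, such as Irf7 and Pax7 (adjusted p = 0.0179 and 0.0224). The comparisons of both cocktails with +MyoD share the +MyoD libraries.

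Of the interferon list 26 of 36 members were higher than with F/R/C alone at an unadjusted p under 0.05, against 5.27% of all genes, and the median difference was 1.42 on the log2 scale. DESeq2 called 13 of them. Irf7 differed by 1.91, Isg15 by 2.50 and Bst2 by 1.64. Pax7 stood at 1.22, 0.669 and 0.284 CPM with F/R/C alone, each below the lowest SP library, a log2 difference of 3.85. Fgfr4 stood at 7.47, 9.11 and 7.70 CPM, a difference of 1.48. Both were among the genes called by all 3 of the other fits.

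Among muscle genes Ckm stood at 19.6, 39.5 and 31.4 CPM with F/R/C alone, a difference of -1.23, and Ankrd2, a stretch-responsive repeat protein, at 68.2, 73.4 and 114 CPM (-0.82). The median difference over the 58 sarcomere genes was -0.16, with 7 lower and none higher at an unadjusted p under 0.05. Of 23 myogenic factors and antagonists 4 were higher and none lower, and of 17 muscle energy genes 1 was higher and 4 lower. At that p 5.27% of all genes tested were higher, and 9.04% were apart in either direction. Cyp1a1, the cytochrome that the aryl hydrocarbon receptor induces, was at 0.285, 0 and 0 CPM with F/R/C alone, at 0.439, 0.116 and 0 CPM with +MyoD and at 3.62, 1.77 and 2.97 CPM with the SP cocktail. Its relative Cyp1b1 stood at 140, 138 and 149 CPM with F/R/C alone, at 406, 390 and 249 CPM with +MyoD and at 242, 240 and 208 CPM with the SP cocktail. Summed over the Mup family the level with F/R/C alone was 10.8, 3.74 and 5.93 CPM, between those of the other groups. Of the Wnt and cAMP targets, Axin2 stood at 27.4, 29.8 and 20.8 CPM and Dio2 at 142, 106 and 77.1 CPM with F/R/C alone.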

How the data were processed

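RNA-seq of 15 cultures was quantified by the authors, who made stranded poly-A libraries, trimmed reads with fastp 0.20.0 and ran kallisto 0.46.1 on GRCm38.p6 transcripts after bcl2fastq 2.20. The deposited files hold estimated counts per transcript, not normalized, and TPM values, which the authors' kallisto run scaled by effective transcript length. Transcripts were joined to genes by identifier (121104 of 121843, in 35675 genes; the rest carried at most 0.327% of a library), and the estimated counts of a gene's transcripts were added up and then rounded to whole numbers. TPM served only for lengthScaledTPM counts in an alternative.

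Genes were filtered with edgeR (minimum count 10, minimum total 15) and tested with edgeR 4.0.16 (glmQLFit and glmQLFTest, TMM, Benjamini-Hochberg over 19331 genes) in R 4.3.3, in 1 fit of all 15 libraries with condition and replicate number (8 residual degrees of freedom). A gene was called at an adjusted p of at most 0.05 and an absolute log2 fold change over 0.5. The replicate block was part of this fit because same-numbered libraries come from the same MEF line. The mean of its group was first removed from each library. The pairs of lines 1, 2 and 3 across the 2 groups then correlated at 0.15, 0.11 and -0.0033. The SP library of line 3 correlated at up to 0.010 with +MyoD libraries of other lines. Averaged over the libraries of all other conditions, the correlation was highest with the own line for 15 of 15 libraries. Alternatives were fits without the block, of only the 6 libraries, with RLE factors, other filters, lengthScaledTPM counts, DESeq2 1.42.0 and limma 3.58.1 (voom), and leaving out each library.

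The 45 lists (744 genes, 723 tested) and the members were chosen with earlier results of these data known, and lists were described by counts and medians without a set test. Named genes were those the study names, the 10 highest and 10 lowest called log2 fold changes (at least 1 CPM in the higher group, no overlap), for each list the members of smallest p (at most 4) and those called against the rest of the list, the 5 largest CPM gains and losses, and the 5 smallest p each way outside the lists; further members are named by their list. Genes of the direct comparison with F/R/C alone other than these (Galnt6, Ankrd2, Cyp1a1, Cyp1b1) were chosen after their values were seen. Promoters, from RefSeq (GRCm38.p6), were matched by symbol. Levels come from bulk libraries of 1 culture each, and intervals between libraries, not counting error, set the precision. A few items are not reported or drawn here.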

Additional observations from a re-analysis of the deposited data

How the results depend on the processing

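Of 754 genes followed through the 15 alternatives, 422 were called and 280 of these were called in all of them. No called gene reversed. Leaving out 1 library gave 2 other genes calls against their direction: Mmp3 ranged from -0.88 to 1.19 (-0.23 with all libraries) and H19 from -0.57 to 0.43 (0.03). Restricting the fit to the 6 libraries cut the calls most, to 1404 higher and 1026 lower with the replicate block and to 1515 and 1038 without it, against 2477 and 1826. Without the block all 15 libraries gave 2323 and 1726 calls, DESeq2 2936 and 1981. Leaving out 1 library gave 2038 to 2438 higher and 1426 to 1918 lower. In all, 1094 higher and 809 lower genes were called in every alternative. For the SP cocktail against F/R/C alone, edgeR on all 15 libraries with the filter called 0. DESeq2 called 95 higher and 64 lower, and voom 78 and 46. EdgeR without the filter called 8 and 2. Its 6-library fits called 92 and 87 with the block and 2 and 1 without. Leaving out 1 library gave 0 to 0 higher and 0 to 1 lower. The cause was not tested.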

Other observations

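Of 15 complement genes 1 rose (Cfb, log2 fold change 1.22) and none fell; the call of Cfb was lost without line 1 or 2 of the SP cocktail or of +MyoD (adjusted p of 0.0692 to 0.128), while 4 rose without line 3 of +MyoD and 1 fell without its line 1. None of 16 cholesterol synthesis genes and none of 16 p53 and stress genes were called by edgeR on all 15 libraries. DESeq2 called 0 and 1, and the 6-library edgeR fit 0 and 1. Their medians were -0.08 and -0.23, and 1 and 6 of them were at p under 0.05 before adjustment. Without line 2 of +MyoD 4 cholesterol genes rose, and without its line 1 4 fell. Of the stress genes 2 fell without line 3 of the SP cocktail or line 2 of +MyoD and 3 without line 3 of +MyoD. Of 10 melanocyte and neural crest markers 3 rose (Kit, Ednrb and Mitf, by 2.98, 1.41 and 1.07). Ednrb was not called without line 1 of the SP cocktail (adjusted p = 0.0730), Kit was not called in the 6-library fit, and 6 members rose without line 1 of +MyoD. With all libraries the pigment genes Dct, Tyr, Tyrp1 and Pmel did not pass, and Mlana had at most 4 counts in a library. Of 8 cardiac markers tested 3 rose and 1 fell (Gata4, -1.61), and Nkx2-5 had at most 5 counts in a library. The epidermal keratins Krt5 and Krt14 were at 0 counts in all 6 libraries, and none of 6 epithelial markers tested passed. Albumin (Alb) was the 1 of 4 hepatocyte markers to rise, from 0.0313, 0 and 0 CPM to 2.97, 3.87 and 4.66 CPM; it stood at 5.96, 4.11 and 6.83 CPM with F/R/C alone. Of 5 tendon markers 2 fell, Scx by 1.94 and Mkx by 0.98, and neither call held in the 6-library fit or without line 1 or 3 of the SP cocktail or line 2 or 3 of +MyoD (adjusted p of 0.0701 to 0.145); Mkx was not called without line 2 of the SP cocktail either (adjusted p = 0.157).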
